A study of Homo sapiens with 6 samples.

Results

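The SLC25 genes encode the mitochondrial carriers, and they were taken here as every gene named Slc25a and a number: 47 of the 53492 genes in the tables. Transcript levels were measured by RNA sequencing in 3 libraries labelled GFP, from cells transfected with the vector pCS2-eGFP-N, and 3 labelled GFP-CCNB1IP1, from cells transfected with pCS2-eGFP-CCNB1IP1. All 6 are labelled as the human neuroblastoma line SH-SY5Y. CCNB1IP1 is an E3 ubiquitin ligase best known from meiotic recombination, and GFP is the green fluorescent protein that both vectors carry. The share of cells that took up a vector is not stated in the labels, and nothing in the labels says that replicates were separate cultures, so p-values here cover the spread among these libraries alone, and that spread may be purely technical.

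The tables list mouse genes: all 53492 identifiers are mouse ones, although the labels name a human line. Whether reads of human cells were assigned to mouse genes or the libraries came from mouse cells cannot be told apart here, and in the first case each FPKM would count only the reads that matched the mouse gene. All levels below, markers and Ccnb1ip1 included, are therefore levels in these tables, not of the labelled line. Mouse Ccnb1ip1 had 0.0334, 0.125 and 0.0698 FPKM with GFP and 7.36e-08, 0.133 and 0.191 with GFP-CCNB1IP1, which does not check the labels. Below, "with GFP" and "with GFP-CCNB1IP1" stand for the libraries so labelled, and their values follow the order of the replicate numbers. FPKM, the unit throughout, is the number of fragments assigned to a gene, divided by transcript length and library size. Read totals were not given; relative depth, read from the deposited intervals, was 0.743 of the GFP mean in GFP-CCNB1IP1 replicate 2 and 0.950 to 1.06 in the other 5 libraries. Of 13 noradrenergic neuroblastoma markers, 11 had a mean of at least 1 FPKM. Dbh and Ddc, which encode catecholamine synthesis enzymes, were below it. Summed over all 13, the markers had 1149 to 1233 FPKM with GFP and 978 to 1066 with GFP-CCNB1IP1; any part of this in the results below was not tested. Markers of leukocytes, epithelium, glia, fibroblasts, brown fat and male germ cells summed to at most 3.06 FPKM per list in any library.

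Mitochondrial carriers sit in the inner membrane, with a few members in the outer membrane or in peroxisomes, and exchange small molecules that cannot cross it unaided. Each is built from repeated pairs of membrane-spanning helices and works as a gate that opens to 1 side at a time. They bring ADP and phosphate to ATP synthase, carry citrate, malate, aspartate and glutamate between pathways of the matrix and the cytosol, and supply the matrix with coenzymes, nucleotides, glutathione and iron.

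The comparison asked whether the introduced CCNB1IP1 vector went with other levels of carrier transcripts than the GFP vector. No SLC25 gene passed the test. The 2 most abundant, the ADP/ATP carrier Slc25a4 and the phosphate carrier Slc25a3, had ratios of the GFP-CCNB1IP1 mean to the GFP mean of 1.00 and 0.985. The groups did not overlap for 16.2% of the tested members, close to the 17.6% of all tested genes. Among these were the mitochondrial iron importers, Slc25a37 with higher and Slc25a28 with lower values with GFP-CCNB1IP1, and Slc25a24, Slc25a30 and Slc25a14 with higher values, none past the threshold. Slc25a14 reached the filter on low values only through its GFP-CCNB1IP1 libraries.

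Of the 47 genes, 37 had a mean of at least 1 FPKM over the 6 libraries and were tested. At an adjusted p under 0.05 (limma, Benjamini-Hochberg over all 13231 genes tested) 0 of the 37 were called, where 0.00756% of all genes were, a single gene (4 genes without GFP replicate 1, 2 without GFP-CCNB1IP1 replicate 2 and 0 without GFP replicate 2 or 3). The smallest adjusted p of a member was 0.371. At an unadjusted p under 0.05 there were 3 members, Slc25a37 and Slc25a24 among them, all higher, or 8.11%, against 11.4% of all genes. The share higher at that level was 5.59% of all genes and the share lower 5.77%. That count was 1 without GFP replicate 2 (Slc25a30), without GFP replicate 3 (Slc25a53, lower) and without GFP-CCNB1IP1 replicate 3. It was also 1 with the replicate number as a block and after rescaling to TPM (Slc25a24 in both). Without GFP-CCNB1IP1 replicate 1, Slc25a37 (higher) and Slc25a51 (lower) were at that level. Without GFP-CCNB1IP1 replicate 2 these were Slc25a24 (higher) and Slc25a28 (lower), and without GFP replicate 1 Slc25a24 and Slc25a37, both higher. No setting tried brought the adjusted p of any member below 0.331.

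The members lay close to 0 as a group. Their median log2 fold change was 0.014, beside 0.0037 over all genes tested, and with a library left out it ran from -0.0036 without GFP replicate 3 to 0.026 without GFP replicate 2 or GFP-CCNB1IP1 replicate 2. Of the log2 fold changes, 20 of the 37 were above 0, where 51.4% of all genes were. The values ran from -0.155 for Slc25a51 to 0.208 for Slc25a24. The groups did not overlap for 6 of the 37, or 16.2%, against 17.6% of all genes tested; 5 of the 6 were higher and 1 lower, where 8.7% and 8.9% of all genes were. The 95% interval of the difference lay within a 1.25-fold change either way for 26 members and within 1.5-fold for all 37, on the FPKM + 1 scale. There the added 1 shrinks differences of members near 1 FPKM, so these bounds need not hold for their FPKM ratios. Slc25a14 had a log2 fold change of 0.14 (SE 0.12) on that scale and 0.25 (SE 0.23) with a pseudocount of 0.1. The interval reaching farthest ran from -0.50 to 0.22 on the log2 scale and belonged to Slc25a53, a carrier of less defined function. The locus of Slc25a53 overlaps that of Zcchc18, and the deposited intervals imply from 18.2 to 34.9 fragments behind its values.

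**Figure D1:**
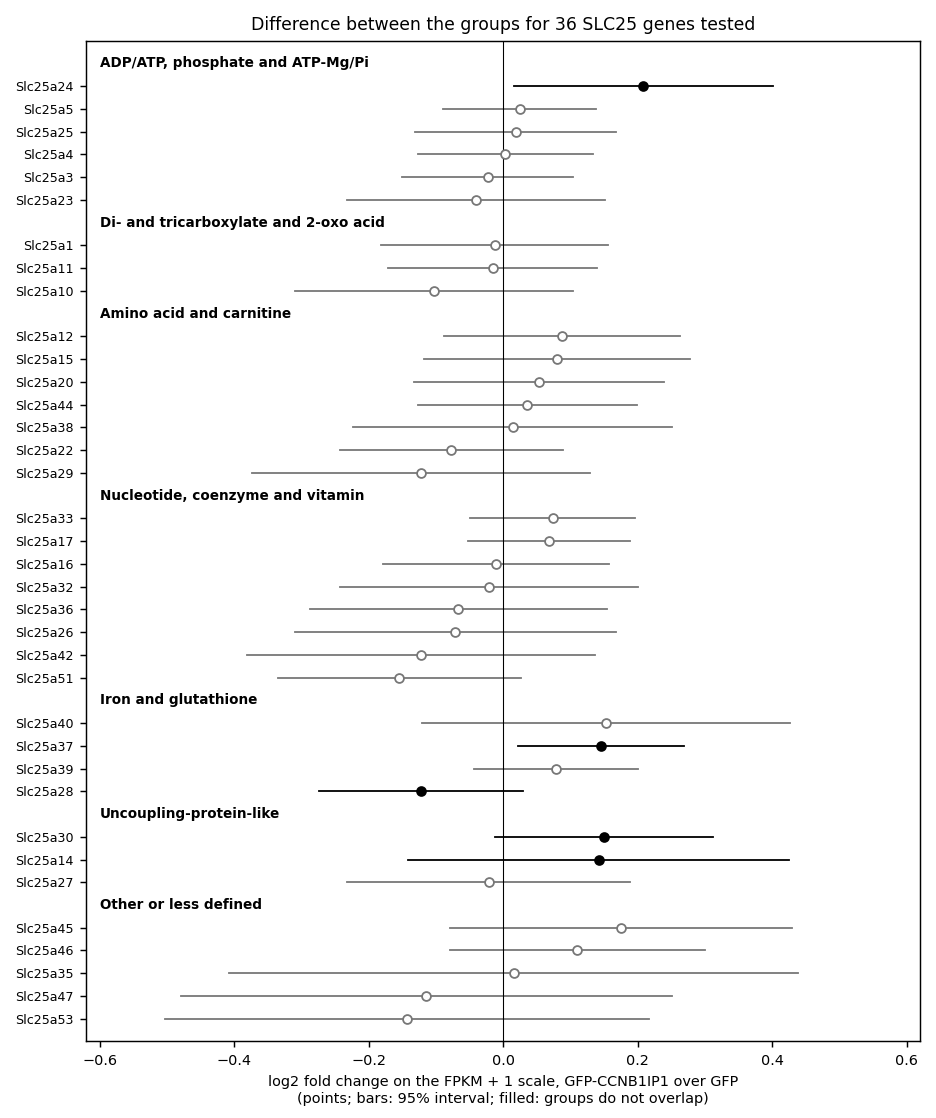
Log2 fold change on the FPKM + 1 scale (x axis) for 36 of the 37 SLC25 genes tested, grouped by role, with bars for the 95% interval; filled points mark genes whose groups did not overlap. All points lie between -0.155 and 0.208.

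Summed over all 47 members, the family had 1059, 1061 and 1042 FPKM with GFP and 1096, 1049 and 1051 with GFP-CCNB1IP1. GFP-CCNB1IP1 replicate 1 had the highest sum and the groups overlapped. The means were 1054 ± 10.8 and 1065 ± 26.3 FPKM (SD, n = 3). The 3 most abundant members made up 49.7% of the sum and the 5 most abundant 62.6%. The median tested member had 10.9 FPKM, close to the 10.8 of the median tested gene. Of all members, 3 had a mean of at least 100 FPKM, 18 had 10 to 100 and 16 had 1 to 10, and 10 were below the filter.

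**Figure D2:**
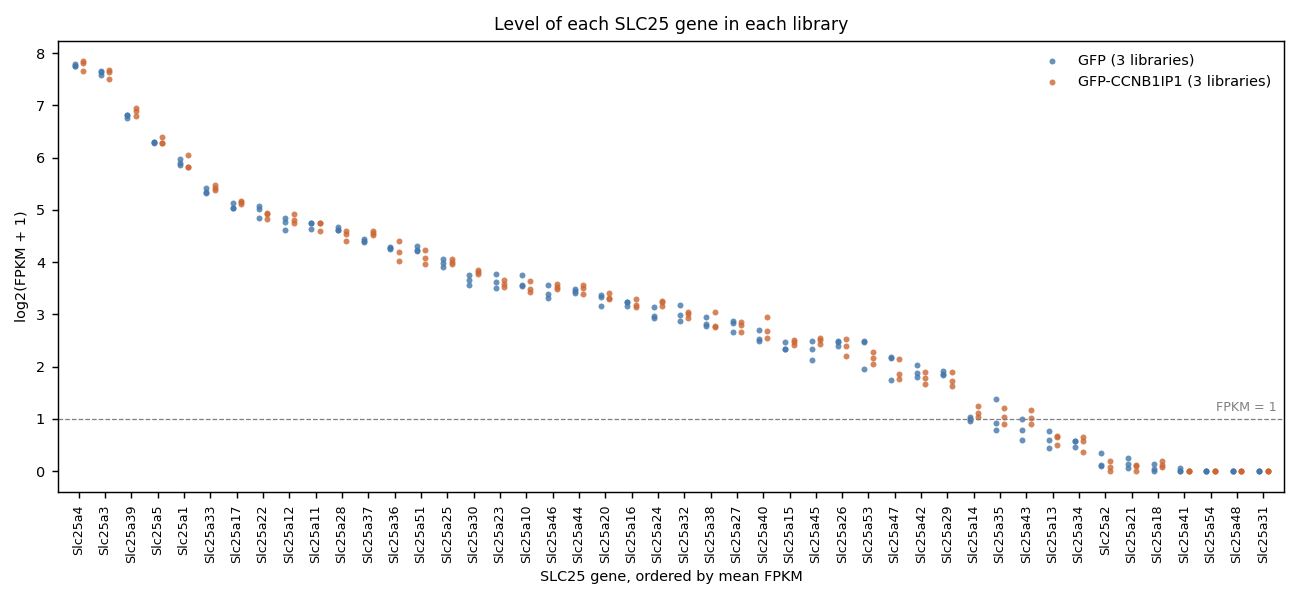
Level of 46 of the 47 SLC25 genes as log2(FPKM + 1) (y axis) in the 3 GFP (blue) and 3 GFP-CCNB1IP1 (orange) libraries, ordered by mean. Slc25a4 and Slc25a3 stand at the top, and 10 genes lie under a mean of 1 FPKM.

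The ADP/ATP, phosphate and ATP-Mg/phosphate carriers were together the most abundant group, with 49.5% of the family's FPKM. Slc25a4 (ENSMUSG00000031633.5, chromosome 8, 46659834 to 46664321, in the coordinates of the files, whose build no source used here states) encodes the ADP/ATP carrier known as the form of heart, muscle and brain. It had 222, 216 and 214 FPKM with GFP and 224, 201 and 229 with GFP-CCNB1IP1. The GFP-CCNB1IP1 values lay on both sides of the GFP values, and the log2 fold change was 0.0031 (SE 0.056, 95% interval -0.13 to 0.13, limma, adjusted p = 0.991). Slc25a5, the ADP/ATP carrier gene associated with proliferating cells, had 76.4, 78.0 and 77.3 FPKM against 83.0, 76.4 and 76.5. Only GFP-CCNB1IP1 replicate 1 stood above the GFP range. Slc25a31, the ADP/ATP carrier gene of male germ cells, was listed at 0 in all 6 libraries.

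Slc25a3 (ENSMUSG00000061904.13, chromosome 10, 90952436 to 90959921) encodes the carrier that brings phosphate into the matrix. It had 191, 198 and 202 FPKM with GFP and 198, 203 and 181 with GFP-CCNB1IP1, with a log2 fold change of -0.023 (SE 0.055, 95% interval -0.15 to 0.10, adjusted p = 0.904). The ranges of Slc25a3 and Slc25a4 over the 6 libraries met, so their order by level is not resolved, while every value of either was above every value of Slc25a39 and Slc25a5.

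The ATP-Mg/phosphate carriers adjust the adenine nucleotide pool of the matrix, and most of them respond to calcium. Slc25a24 (ENSMUSG00000040322.11, chromosome 3, 109030465 to 109075773) had 7.86, 6.63 and 6.78 FPKM with GFP and 8.48, 7.92 and 8.58 with GFP-CCNB1IP1. All 3 GFP-CCNB1IP1 values were higher, the nearest pair being 7.86 and 7.92 FPKM. The log2 fold change of 0.21 was the largest of any tested member (SE 0.083, 95% interval 0.015 to 0.40, unadjusted p = 0.0376, adjusted p = 0.409). Its relatives Slc25a25 and Slc25a23 had group means of 14.9 and 15.1 FPKM and of 11.4 and 11.1 FPKM, with adjusted p of 0.943 and 0.891. Slc25a41, the calcium-independent relative, was above 0 in GFP replicate 2 alone, at 0.042 FPKM.

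Carriers of di- and tricarboxylates link the citric acid cycle to the cytosol. Slc25a1, the citrate carrier that supplies carbon for fatty acid and sterol synthesis, had 58.7, 62.1 and 57.1 FPKM against 65.4, 55.6 and 55.7. The GFP-CCNB1IP1 values lay on both sides of the GFP range, and the log2 fold change was -0.013 (SE 0.073, 95% interval -0.18 to 0.16, adjusted p = 0.971). Slc25a11, the 2-oxoglutarate/malate carrier of the malate-aspartate shuttle, had 26.0, 26.0 and 23.7 FPKM against 25.8, 23.2 and 25.9, and its locus overlaps that of Rnf167. The dicarboxylate carrier Slc25a10 had group means of 11.3 ± 1.07 and 10.5 ± 0.885 FPKM, and the oxodicarboxylate carrier Slc25a21 was at or under 0.189 FPKM in every library. All 3 tested genes of this group had log2 fold changes below 0, from -0.10 to -0.013, and 0 of them passed at an unadjusted p under 0.05. With a library left out, the values of Slc25a1 and Slc25a11 reached 0.026 and 0.034, so their direction is not settled.

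Among 10 amino acid and carnitine carriers, 7 were tested, 5 with a positive and 2 with a negative log2 fold change, and in none were the groups apart. Slc25a12, the aspartate/glutamate carrier called aralar, had 27.8, 23.6 and 26.2 FPKM with GFP and 29.5, 26.1 and 27.1 with GFP-CCNB1IP1. Its counterpart Slc25a13, the citrin gene prominent in liver, had 0.352, 0.695 and 0.519 FPKM against 0.599, 0.569 and 0.409. The groups overlapped for both genes, and the deposited intervals imply from 2.46 to 14.4 fragments behind the Slc25a13 values. The glutamate carrier Slc25a22 had 31.3, 32.7 and 27.7 FPKM against 29.4, 27.4 and 29.7, a log2 fold change of -0.077 (SE 0.072, 95% interval -0.24 to 0.089, adjusted p = 0.727). Leaving out GFP replicate 3 gave -0.14, leaving out GFP replicate 2 gave -0.029 and leaving out GFP-CCNB1IP1 replicate 2 gave -0.041. Its paralog Slc25a18, a form known from astrocytes, reached at most 0.136 FPKM.

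Slc25a20, the carnitine/acylcarnitine carrier of fatty acid oxidation, had 9.06, 9.31 and 7.92 FPKM with GFP and 9.58, 8.80 and 8.95 with GFP-CCNB1IP1 (adjusted p = 0.845). The groups overlapped. The ornithine carrier Slc25a15 had group means of 4.22 and 4.52 FPKM, the branched-chain amino acid carrier Slc25a44 had 9.91 and 10.2, the glycine carrier Slc25a38 had 6.21 and 6.30, and the basic amino acid carrier Slc25a29 had 2.66 and 2.37. The other ornithine carrier gene, Slc25a2, had at most 0.275 FPKM.

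All 9 carriers of nucleotides, coenzymes and vitamins were tested, 3 with a positive and 6 with a negative log2 fold change. Slc25a33, a pyrimidine nucleotide carrier gene, had 41.8, 38.9 and 39.4 FPKM against 43.7, 40.9 and 41.8, and the groups overlapped (adjusted p = 0.652). Its locus overlaps that of Gm13068. Slc25a36, the other pyrimidine nucleotide carrier, had group means of 18.3 ± 0.319 and 17.5 ± 2.50 FPKM. Slc25a51, the NAD+ importer of mitochondria, had the lowest log2 fold change of the family, -0.15 (95% interval -0.34 to 0.026), with means of 18.0 and 16.1 FPKM and overlapping groups (adjusted p = 0.503). The peroxisomal carrier Slc25a17 had 32.7 and 34.3 FPKM, the folate and FAD carrier Slc25a32 had 7.12 and 6.97, the S-adenosylmethionine carrier Slc25a26 had 4.46 and 4.21, the coenzyme A carrier Slc25a42 had 2.75 and 2.44, and Slc25a16, also tied to coenzyme A, had 8.27 and 8.20.

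The iron and glutathione carriers held 15.4% of the family's FPKM. Slc25a37, mitoferrin-1, and Slc25a28, mitoferrin-2, import iron for heme and iron-sulfur cluster synthesis, the first mainly known from red cell precursors and the second from other tissues. Slc25a37 (ENSMUSG00000034248.8, chromosome 14, 69479297 to 69522561) had 20.7, 19.9 and 20.3 FPKM with GFP and 21.9, 23.2 and 22.4 with GFP-CCNB1IP1. Slc25a28 (ENSMUSG00000040414.9, chromosome 19, 43652240 to 43663320) had 23.5, 23.6 and 24.4 FPKM against 20.1, 23.3 and 22.1. All GFP-CCNB1IP1 values were higher than all GFP values for Slc25a37 and lower for Slc25a28, where GFP-CCNB1IP1 replicate 2 was close to the GFP range.

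The log2 fold change of Slc25a37 was 0.14 (SE 0.053, 95% interval 0.022 to 0.27, unadjusted p = 0.0267, adjusted p = 0.371). That of Slc25a28 was -0.12 (SE 0.065, 95% interval -0.27 to 0.029, adjusted p = 0.525), and -0.067 without GFP-CCNB1IP1 replicate 1, the library with its lowest value. Slc25a37 made up 46.8, 45.7 and 45.4% of the summed mitoferrin FPKM with GFP and 52.1, 49.9 and 50.3% with GFP-CCNB1IP1. This share differed by 4.83 percentage points without overlap. The exact permutation test gave p = 0.1, the smallest that 3 against 3 libraries allow (adjusted p = 0.6 over 6 shares). With Slc25a37 higher and Slc25a28 lower in every GFP-CCNB1IP1 library, the share could not overlap. Its p-value was therefore fixed by the values of these genes and adds no separate evidence. Leaving out each library in turn gave differences of 4.17 to 5.27 points, whose sign was fixed in the same way.

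Slc25a39 and Slc25a40 encode carriers needed for glutathione import. Slc25a39, the third most abundant member, had 112.5, 111.6 and 107.6 FPKM with GFP and 122.9, 117.9 and 109.9 with GFP-CCNB1IP1. Its GFP-CCNB1IP1 replicate 3 was within the GFP range (log2 fold change 0.078, SE 0.053, 95% interval -0.043 to 0.20, adjusted p = 0.622). The fold change was 0.12 without that library and 0.042 without GFP-CCNB1IP1 replicate 1. Slc25a40 had group means of 4.95 ± 0.477 and 5.65 ± 0.926 FPKM (adjusted p = 0.672).

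The carriers that resemble uncoupling proteins, the proton leak proteins of the inner membrane, were low to moderate in level. Slc25a30 had 10.9, 12.5 and 11.7 FPKM with GFP and 12.7, 13.5 and 13.0 with GFP-CCNB1IP1. Slc25a14 had 0.931, 1.04 and 0.990 FPKM against 1.36, 1.17 and 1.05. Its GFP mean of 0.986 FPKM was under the filter and its GFP-CCNB1IP1 mean of 1.19 carried it past, so its direction is partly set by the filter. Both had every GFP-CCNB1IP1 value above every GFP value, by a narrow margin, and neither reached an unadjusted p of 0.05 (log2 fold changes 0.15 and 0.14, SE 0.070 and 0.12, adjusted p = 0.469 and 0.704 by limma). For Slc25a14 the value was 0.049 with a pseudocount of 5, 0.25 with 0.1 and 0.086 without GFP-CCNB1IP1 replicate 1. From 11.4 to 20.4 fragments were implied behind the Slc25a14 values. Slc25a27, known from brain, had group means of 5.94 and 5.84 FPKM.

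**Figure D3:**
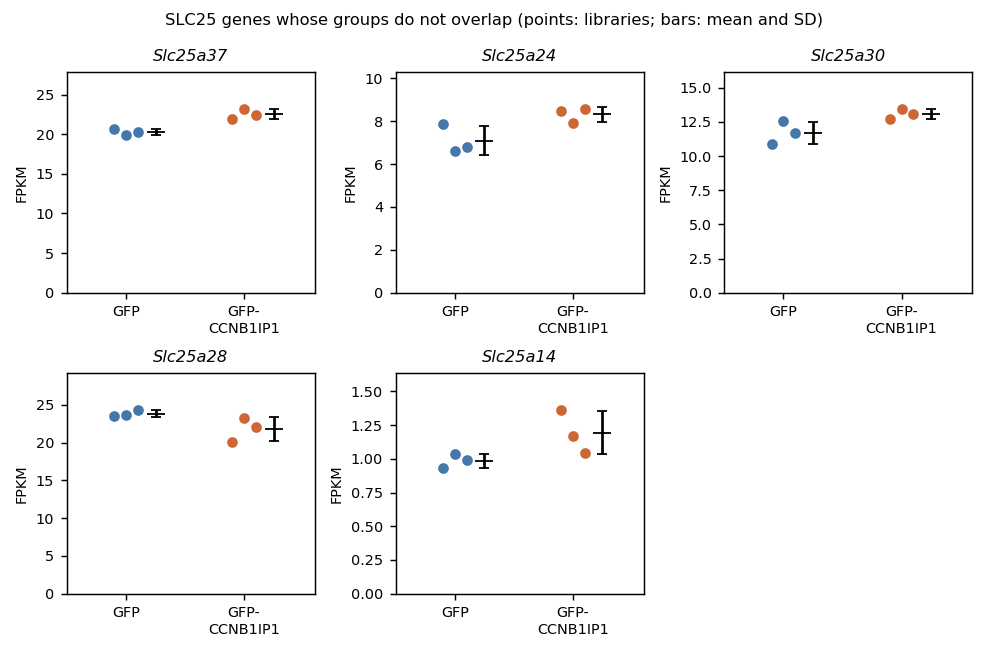
FPKM (y axis, from 0) in each library for 5 of the 6 SLC25 genes whose groups did not overlap; points are libraries, bars the mean and SD of 3. Slc25a28 is lower in the GFP-CCNB1IP1 libraries and the other 4 are higher, none past the threshold.

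In the remaining group of less defined carriers, 5 of 9 were tested. Slc25a46, an outer membrane member tied to mitochondrial shape, had group means of 9.72 and 10.5 FPKM, and Slc25a45 had 4.02 and 4.65. Slc25a53, Slc25a47 and Slc25a35 had 4.03 and 3.50, 3.14 and 2.81, and 1.08 and 1.07 FPKM. None of these 5 had an unadjusted p under 0.05, and their groups overlapped. Below the filter, Slc25a43 had 0.744 and 1.05 FPKM and Slc25a34 had 0.454 and 0.447, while Slc25a48 and Slc25a54 were listed at 0 in every library.

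Shares within sets of paralogs that carry similar substrates show which form had most of the summed FPKM. If reads of human cells were assigned to mouse genes, these shares may differ from shares of transcripts. Slc25a5 made up 26.2 ± 0.515% (SD, n = 3) of ADP/ATP carrier FPKM with GFP and 26.5 ± 1.33% with GFP-CCNB1IP1. Slc25a13 made up 2.02 ± 0.808% and 1.87 ± 0.339% of the aspartate/glutamate carriers, and Slc25a22 made up 99.9 ± 0.168% and 99.7 ± 0.170% of the glutamate carriers. Slc25a33 had 68.6 ± 1.05% and 70.7 ± 3.37% of the pyrimidine nucleotide carriers. Slc25a24 had 21.3 ± 2.73% and 24.2 ± 1.26% of the ATP-Mg/phosphate carriers. The groups overlapped for these 5 shares, and their exact two-sided permutation p-values were 0.3 to 1 (adjusted 0.6 to 1), where 0.1 is the smallest possible.

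**Figure D4:**
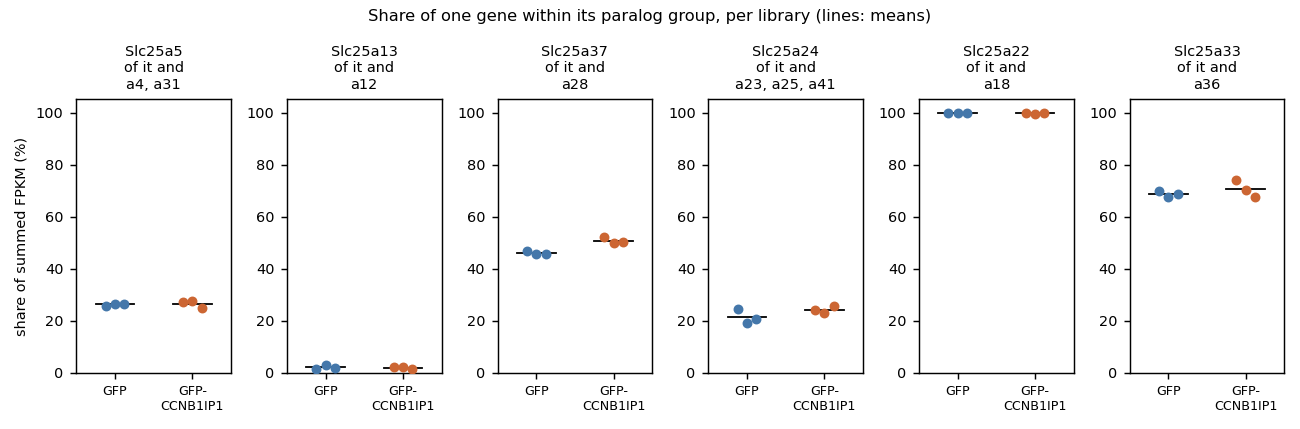
Share (y axis, %) of the first-named gene in the summed FPKM of its paralog group in each library; lines are group means of 3. Only the share of Slc25a37 differs without overlap, from 45.4 to 46.8% in the GFP and 49.9 to 52.1% in the GFP-CCNB1IP1 libraries. This follows from Slc25a37 being higher and Slc25a28 lower in all GFP-CCNB1IP1 libraries.

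Some relatives carry other names and so fall outside the members. Of these, chosen for naming after their values were seen, the uncoupling protein gene Ucp2 had 184.2 ± 9.25 FPKM with GFP and 195.0 ± 7.79 with GFP-CCNB1IP1. Ucp1, the heat-producing form of brown fat, and Ucp3 had group means of at most 0.186 FPKM. Mtch2, the outer membrane relative that inserts proteins there, had 52.9 ± 3.21 and 50.7 ± 4.22 FPKM, and its paralog Mtch1 had 48.6 ± 2.15 and 43.0 ± 4.25, without overlap of the groups (adjusted p = 0.452).

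Carriers reach the inner membrane through the TOM complex, the small TIM chaperones of the intermembrane space and the TIM22 complex. For comparison with the counts of related genes below, 11.4% of all genes tested were at an unadjusted p under 0.05. A log2 fold change above 0 was found for 51.4% of all genes tested. Of 16 such import genes tested, 0 passed, 10 had a positive and 6 a negative log2 fold change, and the median was 0.032. Timm8a1, a small TIM chaperone, was the 1 gene at an unadjusted p under 0.05, with 16.8 ± 1.46 and 20.8 ± 1.74 FPKM (log2 fold change 0.29, SE 0.085, adjusted p = 0.292). Of 15 other inner-membrane transport genes tested, among them those of the pyruvate carrier, sideroflexins and the calcium uniporter, 0 were at an unadjusted p under 0.05, with 10 positive and 5 negative log2 fold changes. Among the 3 outer membrane channel genes, of which 0 passed, Vdac3 had 102.7 ± 1.91 and 110.4 ± 0.455 FPKM (log2 fold change 0.10, adjusted p = 0.395).

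Of 29 tested genes for enzymes that use or supply carrier substrates, 14 had a positive and 15 a negative log2 fold change, with a median of -0.0076, and 0 passed. Those at an unadjusted p under 0.05 were Got1 and Tk2, where 11.4% of all genes tested were at that level. Got1, the cytosolic aspartate aminotransferase of the malate-aspartate shuttle, had 65.0 ± 0.334 FPKM with GFP and 70.8 ± 2.35 with GFP-CCNB1IP1 (adjusted p = 0.380). Tk2, the mitochondrial thymidine kinase, had 7.44 ± 0.372 and 8.64 ± 0.654 FPKM (adjusted p = 0.427).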

How the data were processed

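Transcript levels were measured by sequencing of polyadenylated RNA in 6 libraries, 3 for each of 2 vectors. The authors deposited 1 table per library holding each gene's FPKM and its 2 confidence bounds, per the file headers. HISAT2 and Cufflinks are named in the submitters' processing notes; no source used here gives their versions, the genome build of the coordinates, the annotation or the strand setting. FPKM of rows with 1 identifier were summed, and locus starts, read as counted from 0, are given from 1.

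Members were the genes named Slc25a and a number. Genes with a mean of at least 1 FPKM over the 6 libraries were tested on log2(FPKM + 1) by limma 3.58.1 (R 4.3.3), modelling the trend of variance on level, without a block and with Benjamini-Hochberg adjustment over all 13231 genes. Shares of paralogs were compared by an exact two-sided permutation test in scipy 1.17.1. To estimate how many fragments lay behind an FPKM, its ratio to the standard error was squared, the upper bound being read as 2 standard errors away. In simulated data for this comparison, with 13231 genes and 5 draws, 80.9% of the genes given a log2 change of 0.5 and 99.4% of those given 1 were recovered by limma. Changes were given only to genes of higher GFP mean. The noise was normal, with each gene's variance averaged with the median variance. These rates therefore do not cover members of low level. Nor do they cover differences of the size found here. No change below 0.5 was given, while the log2 fold changes of the tested members ran from -0.155 to 0.208. Over the 5 draws, 53 calls fell on genes given no change.

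Values in every library are given for members with the smallest p-values among those whose groups do not overlap (up to 5 per direction), the 6 with the highest mean and 12 carriers that were always to be given; 1 member is counted in the totals but not reported here. From each list of related genes, up to 3 with the smallest unadjusted p-values under 0.05 are named. The members, lists and tests were chosen with earlier results of these data known. The alternatives tried were other pseudocounts, filters, scalings and variance models, a block for the replicate number, and each library left out in turn.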

Additional observations from a re-analysis of the deposited data

How the results depend on the processing

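No SLC25 gene passed under any of the 17 alternatives. The single call over all genes was lost, leaving 0, with a pseudocount of 5, no filter on low values, loci under 300 bases left out, the replicate number as a block and limma without the trend, and leaving out each library gave 0 to 4 calls; the cause was not tested. At an unadjusted p under 0.05 there were 1505, 2186, 1562, 1392 and 1438 genes in those 5 settings. Members at an unadjusted p under 0.05 numbered 1 in TPM, 1 with the replicate block, and 1 to 2 with a library left out; the cause was not tested. The labels state no pairing, and same-numbered libraries showed no strong shared deviation from their group means. These deviations correlated at 0.023, -0.0093 and -0.011, and GFP replicate 3 correlated best with GFP-CCNB1IP1 replicate 2, at 0.046. Such values cannot tell whether same-numbered libraries were prepared together. Of 254 alternative values for the 15 named members tested, 240 kept the sign and 14 did not. Slc25a4 was at -0.0082 with quantile normalization and -0.0084 in TPM, and at -0.034 to 0.060 with a library left out. The other ranges with a library left out that crossed 0 were -0.058 to 0.027 for Slc25a3, -0.015 to 0.044 for Slc25a5, -0.090 to 0.026 for Slc25a1, -0.059 to 0.034 for Slc25a11 and -0.011 to 0.093 for Slc25a20. The difference in share ran from -0.20 to 1.06 percentage points for Slc25a5 and from -0.53 to 0.28 for Slc25a13. The tested members had from 11.4 to 2403 implied fragments per library, which limits the precision of their values.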

Other observations

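Several members lie side by side in the genome at very different levels. Slc25a5 lies 18448 bases from Slc25a43 on chromosome X, with means over the 6 libraries of 77.9 and 0.898 FPKM. Slc25a23 lies 2056 bases from Slc25a41 on chromosome 17, with 11.3 and 0.0070 FPKM, and Slc25a24 lies 6461 bases from Slc25a54 on chromosome 3, with 7.71 and 0 FPKM. Slc25a29 and Slc25a47 lie only 162 bases apart on chromosome 12 and had similar levels, 2.52 and 2.97 FPKM.

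The locus of 7 tested members overlaps that of another gene with a mean of at least 1 FPKM. No source used here states whether counting used strand, and how far reads of such pairs were separated was not tested. Among these are Slc25a33, which overlaps Gm13068, Slc25a11, which overlaps Rnf167, and Slc25a53, which overlaps Zcchc18. The others are Slc25a25 (Naif1), Slc25a26 (Lrig1), Slc25a35 (Rangrf) and Slc25a36 (Gm16185). None of the 6 members whose groups did not overlap is among the 7. A gene named Slc25a5-ps, outside the members by its name, had at most 0.436 FPKM in any library, beside at least 76.4 FPKM for Slc25a5.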
